A study of Homo sapiens with 6 samples.

Results

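The receptors of the epidermal growth factor family and the ligands that bind them are described here in HCT116 cells and in cells derived from them that lack DNMT3B. The set was given by gene symbol and holds 10 genes of the 60666 in the count tables, with 4 receptors (EGFR, ERBB2, ERBB3 and ERBB4) and 6 ligands (AREG, EREG, TGFA, HBEGF, BTC and EPGN). HCT116 is an established line from a human colorectal cancer, and was labelled WT in genotype. DNMT3B KO is the same line with the de novo DNA methyltransferase gene DNMT3B knocked out, and 3 untreated libraries of stranded mRNA were sequenced from each. Both lines were grown in McCoy's 5A medium with serum. The knockout is represented by a single derived line and whether the replicates were grown as separate cultures is not given in the sources used here, so p-values measure only the spread among these libraries, which may be technical.

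EGF family ligands are made as membrane-anchored precursors. Proteases of the ADAM family cut them free, and the released ligand binds a receptor, which pairs with a second receptor and switches on its kinase. AREG, EREG, TGFA, HBEGF, BTC and EPGN all bind EGFR, while EREG, HBEGF and BTC can also bind ERBB4. ERBB2 has no known ligand of its own and acts as the preferred partner of the others, and ERBB3, whose kinase is weak, responds to neuregulins. Signals run through adaptors to the RAS to ERK and the PI3K to AKT pathways. In the colon these ligands drive epithelial growth and repair. AREG and EREG are known as transcripts that are high in many colorectal cancers, and HCT116 is known to carry an activating mutation of PIK3CA.

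The deposited values were estimated counts, which summed to between 55436267 and 68274783 per library. Levels are given as normalised CPM, with library sizes scaled by TMM, and a difference between the lines is a log2 fold change of DNMT3B KO over HCT116 with its standard error (SE). DNMT3B itself went from 36.0 ± 5.15 CPM (SD, n = 3) to 2.75 ± 0.182 CPM. Of 11 markers of colorectal epithelium, 5 fell (CDH1, KRT8, KRT18, KRT19 and KRT20) and 1 rose (VIL1, from 15 to 206 counts). VIL1 passed the filter on low counts only through DNMT3B KO, so it had to differ in order to be tested. EPCAM (302.3 and 284.9 CPM) and CDX2 (22.4 and 20.3 CPM) did not pass, and CDX1, LGALS4 and CEACAM5 were near 0 in both lines. Of the 8 tested, 75% passed, against 28.1% of all tested genes. The summed level of the 11 was 4390 to 5258 CPM in HCT116 and 2123 to 2311 CPM in DNMT3B KO libraries. KRT8, KRT18 and KRT19 made up most of it in both lines. Summed markers of fibroblasts (9.70 to 19.5 and 12.7 to 15.8 CPM, nearly all of it COL1A1), leukocytes (5.75 to 14.3 and 14.7 to 20.5 CPM, nearly all of it CD68) and endothelium (0.615 to 1.52 and 1.48 to 1.94 CPM) were low. LUM had no count in any library, and PTPRC, the defining leukocyte marker, had 1 count over the HCT116 and 54 over the DNMT3B KO libraries.

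The ligand genes AREG and EREG, abundant in HCT116, were lower in DNMT3B KO cells by 8.85-fold and 13.9-fold. TGFA and its receptor EGFR fell by 2.21-fold and 2.08-fold, and ERBB3 by 1.32-fold, while ERBB2, HBEGF and BTC did not pass the test. EPGN, at a trace level, fell too, and ERBB4 was too low to be tested. Of the 9 members tested with edgeR's quasi-likelihood test, 6 fell and 0 rose at an adjusted p under 0.05. Over all 16959 tested genes 28.1% passed, with 15.1% lower and 12.9% higher in DNMT3B KO cells. EPGN passed the filter on low counts only through its HCT116 libraries and so had to differ in order to be tested. These are bulk samples, in which fewer cells that express a gene and less of its RNA per cell cannot be told apart. In normalised CPM each DNMT3B KO library was below each HCT116 library in 8 of the 9 members, EPGN among them. This pattern was found in 22.6% of tested genes. With counts per exon length scaled to a common library total instead, the lines overlapped in ERBB2, ERBB3 and HBEGF. BTC, higher in DNMT3B KO cells, then did not overlap.

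**Figure D1:**
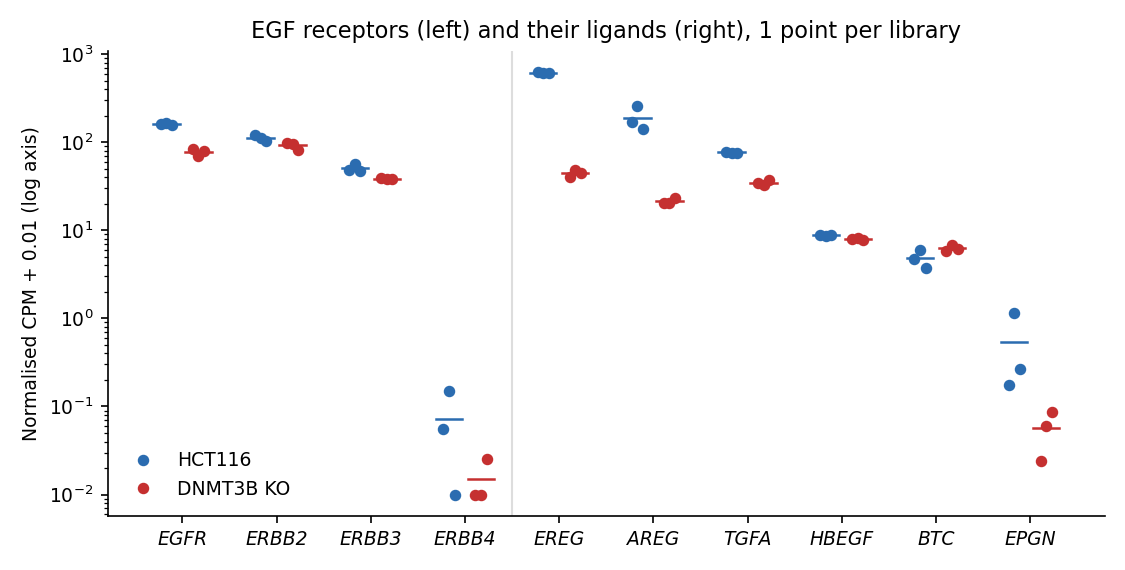
Normalised CPM plus 0.01 on a log axis for the 4 receptor genes (left of the grey line) and the 6 ligand genes (right), with 1 point per library (HCT116 blue, DNMT3B KO red) and a bar at the mean of each line. EREG shows the widest gap, from 617.9 to 44.5 CPM, the points of BTC overlap between the lines, and those of ERBB4 lie near 0 in both.

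EGFR, on chromosome 7 from 55019017 to 55211628 (hg38), had the largest fold change of the 3 tested receptors. It stood at 162.8, 165.7 and 159.1 CPM in HCT116 replicates 1, 2 and 3, and at 84.7, 69.5 and 80.1 CPM in DNMT3B KO replicates 1, 2 and 3. Every DNMT3B KO library lay far below every HCT116 library. The log2 fold change was -1.06 (SE 0.10, 95% interval -1.28 to -0.84, adjusted p = 0.00016 by edgeR).

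ERBB3 (chromosome 12, 56076799 to 56103505), the neuregulin receptor, had 48.7, 56.6 and 46.7 CPM in HCT116 and 39.7, 37.9 and 37.9 CPM in DNMT3B KO libraries. All DNMT3B KO libraries were lower, by a small step, with a log2 fold change of -0.40 (SE 0.10, adjusted p = 0.018 by edgeR). This call was lost when any of HCT116 replicate 1 and the DNMT3B KO replicates 1, 2 and 3 was left out (adjusted p = 0.051, 0.056, 0.076 and 0.070), and when library size alone was used for scaling (adjusted p = 0.11). AC034102.2, annotated on the same strand across part of ERBB3, had 393 counts over all libraries, so reads in the shared part are uncertain.

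ERBB2 (chromosome 17, 39687914 to 39730426), the partner receptor, had 119.7, 112.8 and 102.3 CPM in HCT116 and 98.5, 95.5 and 82.3 CPM in DNMT3B KO libraries. The libraries did not overlap, but the spread within each line was wider than the gap between them, and the log2 fold change of -0.28 (SE 0.10, 95% interval -0.52 to -0.04) did not pass (adjusted p = 0.080 by edgeR). Without HCT116 replicate 3 it passed (adjusted p = 0.040). ERBB4 (chromosome 2, 211375717 to 212538841) had 3, 9 and 0 counts in HCT116 and 0, 0 and 1 in DNMT3B KO libraries. The HCT116 to DNMT3B KO ratio came to 13.1, with an exact 95% counting interval of 1.94 to 560.9, which covers counting error only, and most of its counts came from HCT116 replicate 2.

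With EGFR lower and ERBB2 nearly level, the mix of receptor transcripts shifted. Per length of exon, EGFR made up 40.3% ± 1.32 (SD, n = 3) of the summed receptor level in HCT116 and 28.7% ± 2.56 in DNMT3B KO cells, and ERBB2 42.7% ± 1.75 and 52.1% ± 2.90. The ratio of ERBB2 to EGFR was 1.14, 1.05 and 0.994 in HCT116 libraries and 1.80, 2.12 and 1.59 in DNMT3B KO libraries, so the groups did not overlap. An exact two-sided permutation test gave p = 0.1, the smallest that 3 against 3 libraries allow.

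EREG, which encodes epiregulin, lies on chromosome 4 from 74365145 to 74388749. It had 630.3, 607.9 and 615.4 CPM in HCT116 and 40.5, 48.4 and 44.6 CPM in DNMT3B KO libraries. HCT116 libraries were tightly grouped, with a coefficient of variation of 1.84%, far above all DNMT3B KO libraries. The log2 fold change was -3.80 (SE 0.11, 95% interval -4.04 to -3.55, adjusted p = 4.2e-07 by edgeR), the 271st largest decrease among tested genes, and it lay between -3.73 and -3.86 with any single library left out.

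AREG (chromosome 4, 74445136 to 74455005) encodes amphiregulin. It had 172.2, 259.2 and 140.2 CPM in HCT116 and 20.5, 20.5 and 23.6 CPM in DNMT3B KO libraries. HCT116 replicate 2 was the highest and replicate 3 the lowest, a coefficient of variation of 32.3% against 8.25% in DNMT3B KO cells, and the lowest HCT116 library was still well above every DNMT3B KO library. The log2 fold change was -3.15 (SE 0.22, 95% interval -3.66 to -2.63, adjusted p = 4.9e-05 by edgeR), and -2.87 without HCT116 replicate 2.

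TGFA, the gene of transforming growth factor alpha (chromosome 2, 70447284 to 70554193), had 77.8, 76.3 and 76.2 CPM in HCT116 and 34.1, 32.8 and 37.3 CPM in DNMT3B KO libraries. The spread in each line was small beside the gap, with a log2 fold change of -1.14 (SE 0.08, adjusted p = 5.8e-05 by edgeR). EPGN, which encodes epigen (chromosome 4, 74308470 to 74316789), had 11, 73 and 13 counts in HCT116 and 1, 3 and 5 in DNMT3B KO libraries. HCT116 replicate 2 held most of these counts. The log2 fold change of -3.46 (SE 0.91, adjusted p = 0.025 by edgeR) became -2.15 without that library, and the call was lost without DNMT3B KO replicate 1, 2 or 3 (adjusted p = 0.093, 0.089 and 0.062).

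HBEGF (chromosome 5, 140332843 to 140346603), the heparin-binding ligand, was the steadiest member, with 8.84, 8.62 and 8.87 CPM in HCT116 and 7.89, 8.14 and 7.85 CPM in DNMT3B KO libraries. DNMT3B KO libraries lay just below, and the log2 fold change of -0.14 (SE 0.13, 95% interval -0.43 to 0.15) did not pass (adjusted p = 0.45 by edgeR). BTC, which encodes betacellulin (chromosome 4, 74744759 to 74794523), had 4.74, 5.92 and 3.77 CPM in HCT116 and 5.78, 6.84 and 6.08 CPM in DNMT3B KO libraries. Its groups overlapped through HCT116 replicate 2, and the log2 fold change of 0.37 (SE 0.20, 95% interval -0.09 to 0.84) did not pass (adjusted p = 0.21 by edgeR). Without HCT116 replicate 2 it was 0.54 and passed (adjusted p = 0.049).

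**Figure D2:**
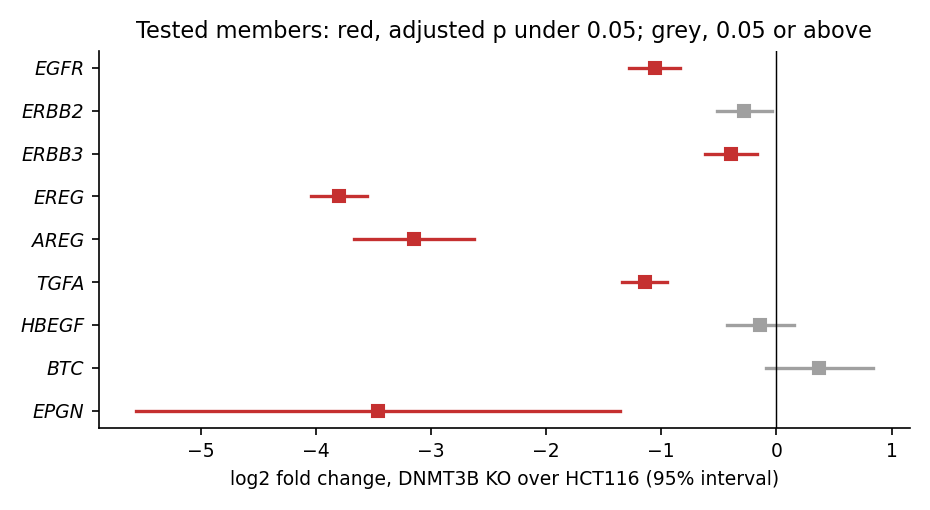
Log2 fold change of DNMT3B KO over HCT116 (squares) with its 95% interval (lines) for the 9 tested members, in red where the adjusted p was under 0.05 and in grey where it was 0.05 or above. EREG and AREG lie near -3.80 and -3.15, EGFR and TGFA near -1.06 and -1.14, and EPGN has the widest interval.

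HCT116 replicates 2 and 3 stood apart in some ligands and not in others. On the log2 scale HCT116 replicate 2 was above its line's mean by 0.49 in AREG, 0.32 in BTC and 1.53 in EPGN, and replicate 3 was below it in each (-0.39, -0.33 and -0.49). EREG, TGFA and HBEGF stayed within 0.03 of the mean in all HCT116 libraries. Over all tested genes, HCT116 replicates 2 and 3 were the least alike of the HCT116 pairs. Their log2 CPM correlated at 0.9751, against 0.9865 and 0.9864 for replicate 1 with 2 and with 3.

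Compared as TPM, here the count per kb of merged exon scaled to a common library total, AREG and EREG were the most abundant members in HCT116, at 421.4 ± 148.6 (SD, n = 3) and 390.1 ± 21.5, and their libraries overlapped. TGFA followed at 56.3 ± 3.11, then ERBB2 at 39.1 ± 4.79 and EGFR at 36.8 ± 2.41, which overlapped each other, then ERBB3 (15.6 ± 2.14), HBEGF (10.6 ± 0.441), BTC (6.58 ± 1.70), EPGN (0.581 ± 0.617) and ERBB4 (0.0176 ± 0.0205). In DNMT3B KO cells AREG was still first, at 51.5 ± 1.80, but ERBB2 (35.2 ± 4.82) came next and overlapped EREG (30.6 ± 2.94), ahead of TGFA (27.8 ± 0.823), EGFR (19.3 ± 2.08) and ERBB3 (12.9 ± 0.866). HBEGF (10.5 ± 0.612) and BTC (9.25 ± 0.983) overlapped. With the length of the MANE Select transcript in place of merged exons, ERBB2 ranked above TGFA in HCT116. In DNMT3B KO cells its mean was then above that of AREG, but their libraries overlapped. There TGFA overlapped EGFR, and EGFR overlapped ERBB3.

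The 6 ligands together summed to 876.4, 1054 and 726.4 TPM in HCT116 and to 127.3, 132.3 and 129.2 TPM in DNMT3B KO libraries. The pool was thus 6.83-fold larger in HCT116 on average, and 1.56-fold without AREG and EREG. EREG made up 44.9% ± 6.83 (SD, n = 3) of the pool in HCT116 and 23.6% ± 1.82 in DNMT3B KO cells, while AREG made up 46.6% ± 7.86 and 39.7% ± 1.77. The share of TGFA went from 6.47% ± 0.937 to 21.4% ± 1.01, that of HBEGF from 1.22% ± 0.193 to 8.08% ± 0.452 and that of BTC from 0.736% ± 0.0605 to 7.13% ± 0.638. A share can rise when the pool gets smaller, even with no rise in the ligand itself. TGFA itself went from 56.3 to 27.8 TPM, HBEGF from 10.6 to 10.5 TPM and BTC from 6.58 to 9.25 TPM. The shares of EREG, TGFA, HBEGF and BTC did not overlap between the lines, those of AREG and EPGN did, and exact two-sided permutation tests gave p = 0.1 for EREG, with 3 against 3 libraries allowing no smaller value, and p = 0.2 for AREG. This pool leaves out EGF and the neuregulins, which are given below. Set against the receptors, the summed level of these 6 ligands was 9.63 ± 1.10 times the summed receptor level in HCT116 and 1.94 ± 0.210 times in DNMT3B KO cells. With MANE Select lengths, an alternative chosen after seeing the data, these ratios were 6.25 ± 0.747 and 1.19 ± 0.134.

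EPGN, EREG, AREG and BTC lie in this order on chromosome 4, over 486.1 kb from 74308470 to 74794523, with the long noncoding RNA genes AC021180.1 between EREG and AREG and AC239584.1 between AREG and BTC. EPGN, EREG and AREG are on the plus strand with gaps of 48.4 and 56.4 kb between them, and BTC is on the minus strand 289.8 kb beyond AREG. EREG and AREG fell and BTC did not pass the test, while EPGN, as said above, had to differ in order to be tested. Of 36 annotated genes that start within 500 kb of this cluster, 12 were tested, 8 of them not ligands of the family. Among these 8, 2 fell and 1 rose, where over all tested genes 28.1% passed, 15.1% lower and 12.9% higher. PARM1, a mucin-like gene beyond BTC, went from 24.2 ± 5.79 to 13.3 ± 1.05 CPM (mean ± SD, n = 3), or -0.86 ± 0.17 (log2 fold change ± SE, adjusted p = 0.0081 by edgeR). CXCL1, a chemokine gene on the other side, went from 0.395 ± 0.103 to 0.0843 ± 0.0352 CPM (-2.19, SE 0.44), and like EPGN it passed the filter on low counts only through HCT116. MTHFD2L, a mitochondrial folate enzyme gene next to EPGN, rose from 8.24 ± 1.25 to 13.4 ± 0.583 CPM (0.70, SE 0.15). CXCL2, CXCL3, AC093677.2, AC239584.1 and LINC02562 were each under 1 CPM and did not pass, with log2 fold changes between -0.90 and 0.28.

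**Figure D3:**
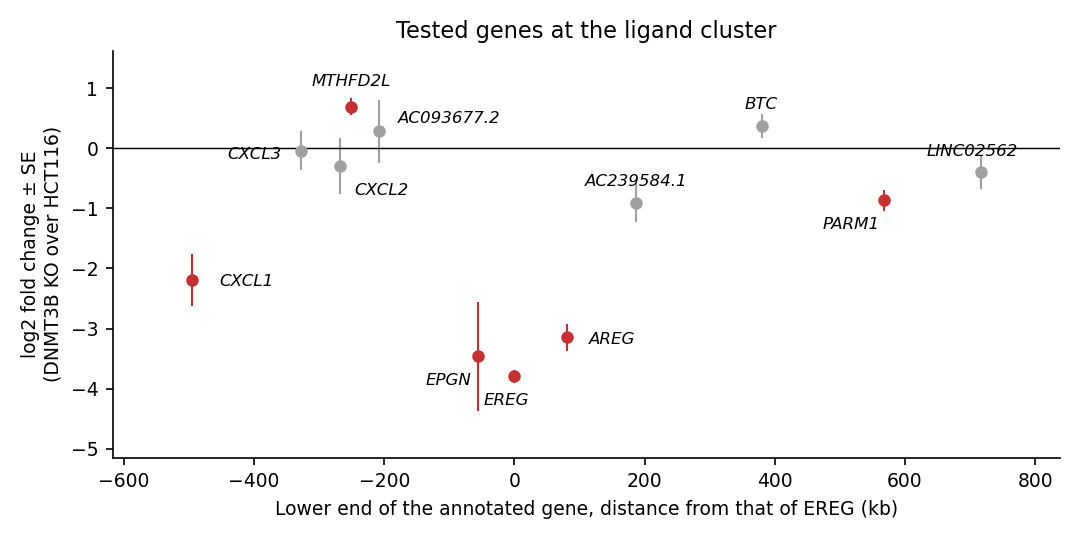
Log2 fold change of DNMT3B KO over HCT116 (points, with SE as lines) for the 12 tested genes at the ligand cluster against the distance of each gene's lower end from that of EREG in kilobases, red where the adjusted p was under 0.05 and grey otherwise. EREG and AREG lie near -3.80 and -3.15, with MTHFD2L at 0.70 on the left and BTC at 0.37 on the right. EPGN, near -3.46, passed the filter on low counts only through HCT116 and so had to differ in order to be tested.

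The bases just upstream of these clustered genes are shown because DNMT3B methylates the C of CpG pairs, which are in capitals. Each run is the 250 bases before the gene's start in RefSeq (GRCh38.p14), read 5′ to 3′ on the gene's strand. The windows are chr4:74308220-74308469 (plus strand) for EPGN, chr4:74364895-74365144 (plus) for EREG, chr4:74444886-74445135 (plus) for AREG and chr4:74794524-74794773 (minus) for BTC.
EPGN: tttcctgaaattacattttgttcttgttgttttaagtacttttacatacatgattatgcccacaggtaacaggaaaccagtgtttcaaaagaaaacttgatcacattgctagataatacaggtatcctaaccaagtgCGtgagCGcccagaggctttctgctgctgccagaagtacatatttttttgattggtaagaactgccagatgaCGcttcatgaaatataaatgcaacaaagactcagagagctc
EREG: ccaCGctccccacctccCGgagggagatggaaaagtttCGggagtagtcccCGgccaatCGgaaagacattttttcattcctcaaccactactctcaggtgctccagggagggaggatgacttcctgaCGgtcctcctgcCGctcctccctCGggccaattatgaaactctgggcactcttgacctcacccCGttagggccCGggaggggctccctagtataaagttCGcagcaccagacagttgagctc
AREG: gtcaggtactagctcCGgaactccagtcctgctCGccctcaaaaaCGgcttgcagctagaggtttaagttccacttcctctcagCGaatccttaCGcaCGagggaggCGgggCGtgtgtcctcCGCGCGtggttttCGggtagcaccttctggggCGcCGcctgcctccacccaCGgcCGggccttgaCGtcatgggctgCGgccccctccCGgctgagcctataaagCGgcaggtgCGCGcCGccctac
BTC: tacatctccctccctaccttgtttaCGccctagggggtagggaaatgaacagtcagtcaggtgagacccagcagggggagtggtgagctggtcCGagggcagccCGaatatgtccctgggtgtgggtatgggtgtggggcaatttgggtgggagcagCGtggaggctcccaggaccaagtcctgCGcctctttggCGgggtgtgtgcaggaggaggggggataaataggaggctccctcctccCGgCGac

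RefSeq windows were found for 9 of the 10 members, with 2 windows each for EGFR and TGFA, and CpG content varied widely among them. EPGN had 3 CpGs, BTC 8, EREG 11 and AREG 23, and the median of 35116 such windows was 11. AREG had more CpGs than 74.2% of these windows and EPGN more than 22.9%. Of the others, HBEGF had 33, the EGFR window at the annotated gene start 25 and the second EGFR window 1, the TGFA windows 27 and 20, ERBB2 23 and ERBB4 14.

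Short motifs were searched on both strands of the same windows. The TATA box letters TATAAA were present in EPGN, EREG, AREG and the second EGFR window, and in 10.7% of all windows. The cyclic AMP response element TGACGTCA was found in AREG alone among the members, and in 1.65% of all windows. The shorter TGACG, which the full element contains, was in EPGN, EREG, AREG and 1 TGFA window, and in 21.2% of all. The GC box GGGCGG was in AREG, HBEGF, ERBB4 and 1 window each of EGFR and TGFA, and in 42.6% of all, and the AP-1 site TGACTCA was in the second EGFR window and in 4.20% of all. A match only says that the letters are there, and methylation of these windows was not analysed here.

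The other ligands of the family moved in both directions. Of 4 tested, 2 rose and 1 fell, or 75% called against 28.1% of all tested genes. The median log2 fold change was 0.14, against -0.00 over all tested genes. NRG1, which encodes the ERBB3 and ERBB4 ligand neuregulin 1, rose from 4.72 ± 2.54 to 19.6 ± 2.36 CPM (mean ± SD, n = 3), or 2.06 ± 0.36 (log2 fold change ± SE, adjusted p = 0.0041 by edgeR). EGF, the founding ligand, rose from 0.754 ± 0.421 to 2.28 ± 0.431 CPM, a call that did not hold when HCT116 replicate 1, DNMT3B KO replicate 1 or DNMT3B KO replicate 2 was left out (adjusted p = 0.080, 0.069 and 0.079). NRG4, named after its values were seen, fell from 0.748 ± 0.210 to 0.0854 ± 0.0742 CPM and lost its call without DNMT3B KO replicate 3 (adjusted p = 0.053), having passed the filter only through HCT116, while NRG3 had no count in any library.

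Of 9 tested genes of ligand release, which are membrane proteases and proteins that help or inhibit them, 5 fell and 0 rose (55.6% against 28.1% of all tested genes), with a median log2 fold change of -0.40. TIMP3, which is an inhibitor of these proteases, went from 462 counts over the HCT116 libraries to 1 over the DNMT3B KO libraries. TIMP3 is 1 of these 5, but like EPGN it passed the filter only through HCT116 and so had to differ to be tested. The proteases ADAM15 and ADAM9 fell from 171.6 ± 8.70 to 77.4 ± 7.51 CPM and from 320.4 ± 14.9 to 189.1 ± 9.36 CPM (SD, n = 3). The others that fell, named after their values were seen, were RHBDF1, an iRhom that helps ADAM17 mature (log2 fold change -1.84, SE 0.37), and ADAM17, the main sheddase of AREG, EREG and TGFA. ADAM17 went from 75.0 ± 3.56 to 62.9 ± 2.17 CPM (log2 fold change -0.25, SE 0.08, adjusted p = 0.049 by edgeR). That call was lost when any library other than HCT116 replicate 2 or 3 was left out (adjusted p = 0.10 to 0.17), with scaling by library size alone (0.32) and when genes of low count were kept (0.12).

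Of 20 tested genes of receptor inhibition, dephosphorylation, endocytosis and ubiquitin turnover, 8 fell, 2 rose and 10 did not pass. The share called was 50%, against 28.1% of all tested genes, and the median log2 fold change was -0.16. USP8, a deubiquitinase that removes ubiquitin from internalised EGFR and is known to spare it from degradation, fell from 99.0 ± 6.75 to 12.5 ± 1.43 CPM (mean ± SD, n = 3), or -2.98 ± 0.11 (log2 fold change ± SE, adjusted p = 2.1e-06 by edgeR). LRIG1, a membrane inhibitor of the receptors, fell from 5.85 ± 1.35 to 0.292 ± 0.0526 CPM, and EPS15, an endocytic EGFR substrate, from 80.8 ± 0.468 to 38.5 ± 2.33 CPM. CBLB and SOCS2, the pair that rose, were named after their values were seen (log2 fold changes 0.58 and 0.38), and neither kept its call with any DNMT3B KO library left out. Calls in this list numbered 6 when HCT116 replicate 1 was left out, and 5, 5 and 6 when DNMT3B KO replicates 1, 2 and 3 were. In these runs calls over all tested genes fell too, from 4761 of 16959 to 3109 of 17425 without HCT116 replicate 1. They were 3148 of 17354, 3049 of 17355 and 3095 of 17407 without DNMT3B KO replicates 1, 2 and 3.

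Of 15 tested adaptors, 3 fell and 2 rose, a share of 33.3% near the 28.1% of all tested genes, with a median log2 fold change of 0.06. EPS8, an EGFR kinase substrate, fell from 89.2 ± 4.55 to 37.3 ± 2.86 CPM (mean ± SD, n = 3), or -1.26 ± 0.09 (log2 fold change ± SE) and the docking adaptor SHC1 from 198.1 ± 6.82 to 115.1 ± 4.35 CPM. GRB7 (-0.93) fell, and GAB2 and PLCG1 rose (0.76 and 0.51, named after their values were seen), but these calls were lost with single DNMT3B KO libraries left out, which took the list's count to 2, 3 and 3 without replicates 1, 2 and 3. Calls over all tested genes fell in these runs too, as given above. GRB2, named for its role as the adaptor that links receptors to RAS, stood at 221.6 ± 22.8 and 231.0 ± 3.36 CPM (log2 fold change 0.06, SE 0.10).

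Of 11 tested genes of the RAS to ERK core 1 passed, a share of 9.09% against 28.1% of all tested genes. This was the kinase gene ARAF, which fell from 45.2 ± 2.75 to 6.60 ± 1.05 CPM (mean ± SD, n = 3), or -2.78 ± 0.14 (log2 fold change ± SE, adjusted p = 7.2e-06 by edgeR). The remaining members had log2 fold changes between -0.21 and 0.20. Of 12 tested PI3K and AKT genes, 4 fell and 2 rose (50% called, against 28.1% of all tested genes), with a median of -0.14. INPP4B, a phosphatase that dampens the pathway, fell from 25.4 ± 1.63 to 10.3 ± 0.563 CPM, while the regulatory subunit genes PIK3R3 and PIK3R1 rose from 3.45 ± 0.799 to 9.50 ± 0.360 CPM and from 29.6 ± 2.76 to 51.4 ± 5.57 CPM.

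For comparison with receptors outside the family, 4 of 18 tested receptor tyrosine kinase genes fell and 2 rose, also 33.3% and near the share of all tested genes, with a median log2 fold change of -0.19. MET, the hepatocyte growth factor receptor, fell from 549.7 ± 76.5 to 152.0 ± 30.5 CPM (mean ± SD, n = 3), or -1.85 ± 0.17 (log2 fold change ± SE, adjusted p = 0.00018 by edgeR), and IGF1R rose from 24.7 ± 1.78 to 48.2 ± 6.63 CPM. PDGFRB rose from 0.314 ± 0.112 to 2.45 ± 0.309 CPM. Between the same libraries in which AREG, EREG and EGFR fell, 5 of the 11 epithelial markers given above fell. VIL1 rose, EPCAM and CDX2 did not pass, and the rest were near 0 in both lines. What part the fall of these 5 had in the values of the members was not tested.

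**Figure D4:**
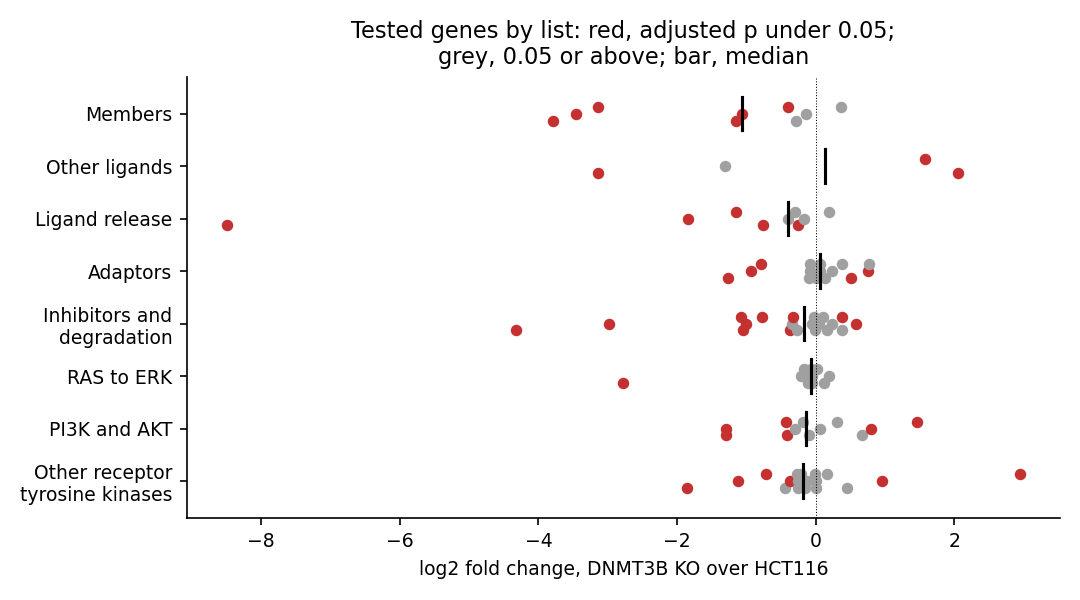
Log2 fold change of DNMT3B KO over HCT116 for each tested gene of the EGF receptor family and of the 7 lists around it, with red points for an adjusted p under 0.05, grey points for 0.05 or above and a black bar at each list's median. Medians run from -1.06 in the receptors and ligands to 0.14 in the other ligands, and the point at the far left is TIMP3.

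The genes whose levels over the 6 libraries ran most like those of EREG, AREG and EPGN were sought among 13657 other tested protein-coding genes, by the root mean square difference of log2 CPM after centring each gene on its own mean. Nearest to EREG were the ubiquitin gene UBB (0.0859, from 1152 ± 82.5 to 85.2 ± 12.5 CPM, SD, n = 3), AKR1E2 (0.129) and DNMT3B itself (0.130). The coding sequence of UBB is made of near-identical repeats, so its counts are uncertain. Nearest to AREG were EPN3 (0.130), TGM2 (0.144) and HS3ST1 (0.158), with log2 fold changes of -3.23, -3.29 and -3.24. The search picks genes by their pattern over these libraries, so fold changes like those of the member follow from the choice. Any link between these genes and the members was not tested. AKR1E2 and GGT5 passed the filter on low counts only through HCT116. For EPGN the nearest were SULT1C2 (0.297), GGT5 (0.381) and SELENOP (0.446), and the call of GGT5 was lost without DNMT3B KO replicate 1 or 2 (adjusted p = 0.077 and 0.076).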

How the data were processed

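The authors made the libraries with a stranded mRNA kit, aligned paired-end reads to hg38 with STAR and counted them in ENSEMBL transcripts with Salmon. The deposited values are Salmon's estimated counts, 1 table for each library, length-scaled and with no correction for depth. Here the estimated counts were rounded, and 16959 genes were kept by filterByExpr. Libraries were scaled by TMM and DNMT3B KO was compared with HCT116 in a model of genotype alone, by the quasi-likelihood test of edgeR 4.0.16 (R 4.3.3). Benjamini-Hochberg adjustment ran over every tested gene, and the fit was checked on simulated counts. The SE is the log2 fold change divided by the square root of F, and intervals use the t distribution with the fit's degrees of freedom.

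Positions, strands and lengths are from GENCODE 44 (hg38), which held 60437 of the 60666 gene IDs. Levels per length divide the deposited values by merged exon length, which includes exons of rare isoforms. Members of the set and all gene lists were chosen with earlier results of these data known. Besides the members and DNMT3B, the genes named were the called genes of each list that reach 1 CPM in either line, up to 3 by adjusted p, tested genes within 500 kb of the ligand cluster, and the 3 genes most alike to each of the 3 called members with the largest change. Alternatives changed the scaling (RLE, or library size alone), the filter, the tool (DESeq2 1.42.0), a replicate block, the gene length and the libraries used. Counting intervals cover counting error alone, because reads here carry no molecular identifiers.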

Additional observations from a re-analysis of the deposited data

How the results depend on the processing

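The number of members that passed was 6, and it was also 6 with RLE scaling, with no filter on low counts, with DESeq2 and with a replicate block. It was 5 with library size alone, and 4 to 7 with single libraries left out. Leaving out single libraries also moved the calls over all tested genes, as given below. EREG, AREG, TGFA and EGFR passed under every alternative run. ERBB3 and EPGN lost their calls, and ERBB2 and BTC gained them, only as given above. No tested member changed direction. Library size alone moved the median of all tested genes to 0.13 (log2) from -0.00. It also changed the split of all calls, from 2565 lower of 4761 to 1884 lower of 5233. Over the 7 surrounding lists 36 genes passed, 34 with the replicate block and 25 to 43 with single libraries left out. Calls over all tested genes, 4761 of 16959, were 4214 with the replicate block and 3049 to 5924 with single libraries left out. No label says that a shared replicate number marks a shared culture, and deviations of same-numbered libraries from the line means correlated at 0.064, -0.0096 and 0.12 for numbers 1, 2 and 3. The replicate block changed no call of a member, and of the other genes named above ADAM17, GRB7 and SOCS2 did not pass under it (adjusted p = 0.096, 0.059 and 0.055 by edgeR).

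The share of EREG in the ligand pool differed by -21.3 percentage points, and by -30.3 with counts not divided by length, which by construction weights EREG, a longer transcript than AREG, more heavily. With MANE Select lengths 8 of 10 members kept their rank in HCT116. Depth limits ERBB4 and EPGN, where 3 counts in a library amount to 0.0416 to 0.0595 CPM.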
